A study of Homo sapiens with 9 samples.

Results

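A set of 10 genes of the TGF-beta pathway was followed in MiaPaCa2 cells given the supernatant of pancreatic stellate cells: the ligands TGFB1 and TGFB2, the receptors TGFBR1 and TGFBR2, the signal carrier SMAD3, the feedback and corepressor genes SKIL, TGIF1, PMEPA1 and SMURF2, and LTBP2, of the latent TGF-beta binding protein family. They are 10 of the 19775 genes represented by a probe set with 1 gene symbol. The 10 were listed by name and selected on measured values of these same arrays, the log2 difference of exposed from control, in which TGFB1 moved against the targets. That contrast is therefore given below as a description only. The 10 genes had 33 probe sets, and each gene is represented by the probe set with the highest mean over all arrays. Of the 10 genes, 8 had a mean of at least 5 on the log2 scale and were among the 12402 genes tested, and TGFB2 and TGFBR2 were not.

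MiaPaCa2 is an established human pancreatic carcinoma line, and pancreatic stellate cells are the matrix-producing cells of the pancreas that activate around such tumours. Exposed cells were harvested 1, 2, 3, 4, 5, 6, 7 and 24 h after addition of supernatant of stellate cells that the titles call naive, and a control was harvested at 24 h. Each of these 9 groups held 1 Affymetrix array, so no value has a replicate, and each error given (±) is a standard error (SE), for which the 7 hourly arrays and their departures from a straight time course take the place of replicates. All groups were the same line with no genetic change named. The labels do not say what was added to the control, and its title carries the same treatment as the others. Hours of exposure and hours in culture cannot be told apart for the 1 to 7 h arrays, which have no control of their own hour.

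The arrays had medians of 4.92 to 4.97 over all probe sets. The 5 h array and the control array stood apart, with a median correlation across probe sets of 0.991 for each with the other arrays, against 0.996 or more for the remaining 7. The 5 h array also had the largest gap between the 3' and 5' probe sets of ACTB, a sign of RNA quality, at 2.24 log2 units against 1.58 to 1.98 on the other arrays. The epithelial keratin KRT18 (13.4 in the control) and the mesenchymal filament VIM (13.8 in the control) were bright, while the epithelial adhesion genes EPCAM (2.29 to 2.81) and CDH1 (3.26 to 3.66) lay near the bottom of the scale on every array. RNA of whole cultures was measured, so fewer expressing cells and less RNA per cell cannot be told apart.

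TGF-beta is secreted bound to its own propeptide and often to a latent TGF-beta binding protein in the matrix. Once freed, it binds TGFBR2, which recruits and activates TGFBR1, which in turn phosphorylates SMAD2 and SMAD3. These enter the nucleus with SMAD4 and switch on, among others, genes whose products dampen the pathway: SKIL (SnoN) and TGIF1 repress SMAD-bound genes, PMEPA1 withholds receptor-activated SMADs from the receptor, and SMURF2 is a ubiquitin ligase for receptors and SMADs. In pancreatic cancer the pathway is known for growth arrest that is often lost, by mutation of SMAD4 in many tumours, and for its part in matrix deposition and cell migration. Low TGFBR2 expression has been described in MiaPaCa2 cells before.

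Of the 10 genes, 3 ranged over at least 1 log2 unit across the 9 arrays: TGFB1 (1.34), SKIL (1.11) and LTBP2 (1.03). Each of the 3 has 1 start in the RefSeq promoter table (build GRCh38.p14), and the 250 bases before that start are shown because these genes moved furthest and in opposite directions. Capitals mark the letters searched on both strands: the palindromic SMAD element GTCTAGAC, its core CAGAC, the AP-1 element TGANTCA, and the GC-rich SMAD motif GGCGC. Neighbouring matches that share bases run together.
TGFB1 promoter, chr19:41353923-41354172, minus strand: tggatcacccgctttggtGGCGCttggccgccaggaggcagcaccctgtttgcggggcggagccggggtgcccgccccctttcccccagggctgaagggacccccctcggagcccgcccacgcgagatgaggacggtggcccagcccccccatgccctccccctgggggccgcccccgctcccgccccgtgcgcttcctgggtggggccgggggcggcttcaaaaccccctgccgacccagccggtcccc
SKIL promoter, chr3:170357465-170357714, plus strand: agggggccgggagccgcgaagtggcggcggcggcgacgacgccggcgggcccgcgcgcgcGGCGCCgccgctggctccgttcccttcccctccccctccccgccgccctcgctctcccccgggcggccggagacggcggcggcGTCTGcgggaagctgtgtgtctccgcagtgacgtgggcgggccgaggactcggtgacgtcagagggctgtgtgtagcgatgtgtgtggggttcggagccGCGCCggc
LTBP2 promoter, chr14:74612238-74612487, minus strand: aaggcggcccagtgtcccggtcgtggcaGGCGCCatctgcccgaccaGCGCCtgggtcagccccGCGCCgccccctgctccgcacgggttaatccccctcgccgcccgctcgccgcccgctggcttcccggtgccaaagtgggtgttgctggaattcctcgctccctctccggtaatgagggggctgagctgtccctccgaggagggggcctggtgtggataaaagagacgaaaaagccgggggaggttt
SKIL held 1 match to CAGAC and 3 to GGCGC, of which 2 overlap on opposite strands. LTBP2 held 4 matches to GGCGC, 2 of them overlapping in the same way, and no other motif, and TGFB1 held 1 match to GGCGC only. Among all 35116 promoters of the table, 38.0% held CAGAC, 44.5% GGCGC, 6.57% TGANTCA and 0.182% GTCTAGAC, so a match to either short motif is common. The 10 genes together had 31 listed starts, of which 14 held CAGAC, 18 GGCGC, 2 TGANTCA and 0 GTCTAGAC. PMEPA1 had 4 starts, of which 2 held CAGAC and all 4 GGCGC. The 3 windows shown were rich in G and C, at 76.8% for TGFB1, 78.4% for SKIL and 68.8% for LTBP2, against a median of 58.0% over all promoters.

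TGFB1, the ligand made by most cell types, was lower in every exposed array than in the control. Its log2 level was 6.71 at 1 h, 6.67 at 2 h, 6.17 at 3 h, 6.22 at 4 h, 5.93 at 5 h, 6.41 at 6 h, 6.30 at 7 h and 6.84 at 24 h, and 7.27 in the control. The exposed arrays and the control did not overlap, and 24.1% of all genes likewise lay below the control on all 8 exposed arrays. The largest gap between neighbours in the order of the levels, 0.430, separated the control from the 24 h array. Exposed minus control came to -0.56 (1 h) and -0.59 (2 h), passed 2-fold at 3 h (-1.10), 4 h (-1.05) and 5 h (-1.34), and was -0.43 at 24 h. After quantile normalization again the 4 h difference was -0.96, under 2-fold. At these hours 0.484%, 0.468% and 0.782% of all genes were at least 2-fold lower. The 5 h array, which stood apart, gave the lowest level, and without it the mean over 1 to 7 h was still -0.85 from the control, against -0.92 ± 0.21 with it. A second probe set of TGFB1, 203084_at, lay between 4.01 and 4.37 on all arrays and did not separate exposed from control. The course therefore rests on 1 probe set of this gene.

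**Figure D1:**
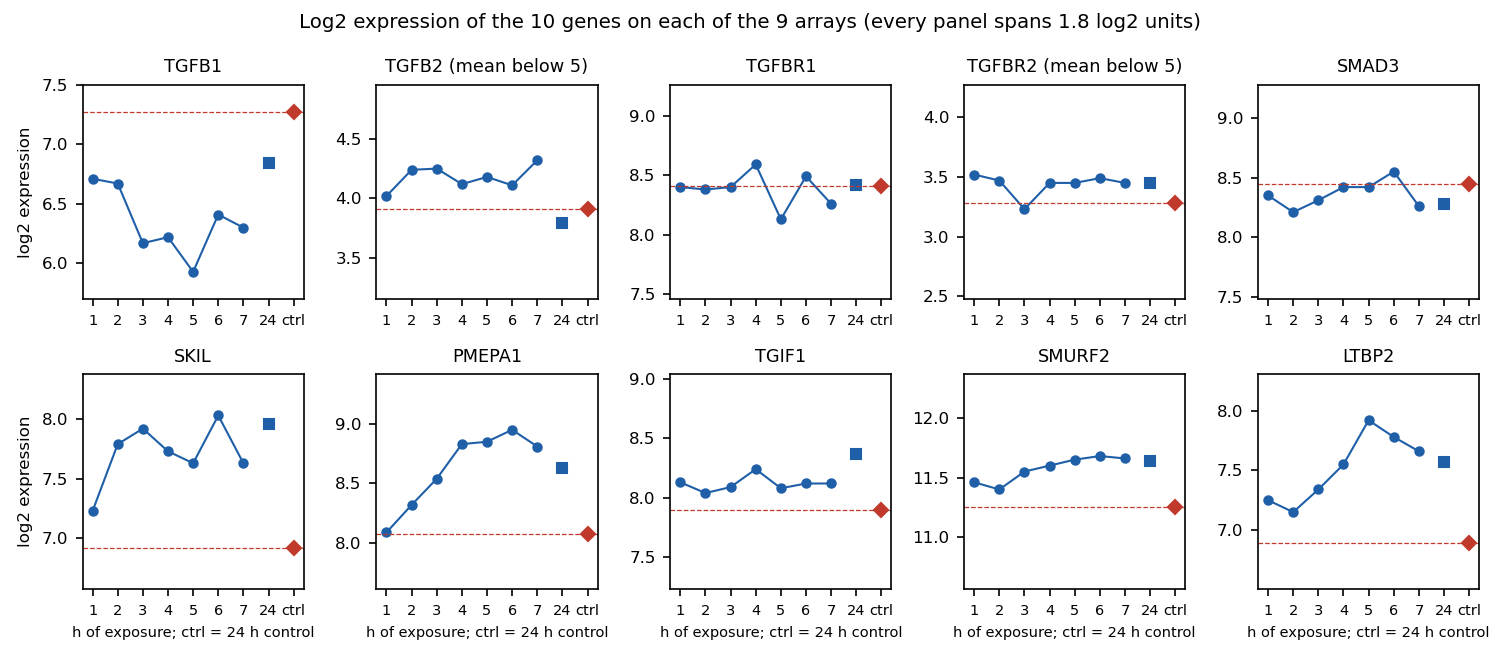
Log2 expression (vertical axis) of the 10 genes on each array, by hour of exposure, with the 24 h exposed array as a square and the 24 h control (ctrl) as a red diamond and dashed line. TGFB1 lies below the control on all 8 exposed arrays, as 24.1% of all genes do. SKIL, PMEPA1, TGIF1, SMURF2 and LTBP2 lie above it on all 8, as 21.0% of all genes do.

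TGFB2, a second ligand, and TGFBR2, the receptor that binds ligand, were dim on every array. The brightest of the 5 TGFB2 probe sets read 4.02 to 4.32 over 1 to 7 h and 3.79 at 24 h, against 3.91 in the control, and the dimmest read no more than 2.42 on any array. Both TGFBR2 probe sets stayed between 3.07 and 3.60 on all 9 arrays. These 2 genes fell short of the mean of 5 that was required, at 4.10 and 3.42, while the lowest mean among the 8 others was 6.50, that of TGFB1. TGFB2 and TGFBR2 were therefore not part of the counts that follow, and a low array signal does not show that a transcript is absent.

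TGFBR1 and SMAD3 hardly moved on their brightest probe sets. TGFBR1, the kinase receptor, read 8.40 at 1 h, 8.38 at 2 h, 8.40 at 3 h, 8.59 at 4 h, 8.13 at 5 h, 8.49 at 6 h, 8.26 at 7 h and 8.42 at 24 h, and 8.41 in the control. The control stood 4th of 9 in the order of levels, and no neighbours in that order were further apart than the gene's residual SD of 0.133. SMAD3 read 8.21 to 8.55 over 1 to 7 h and 8.28 at 24 h, against 8.45 in the control. Again no gap was above its moderated SD, 0.105. Its 3 other probe sets did not read alike: 205398_s_at was at 7.07 to 7.30 over 1 to 7 h and 6.92 at 24 h, against 6.78 in the control, a mean difference of 0.39 ± 0.09, and 205397_x_at differed by 0.25 ± 0.09 over 1 to 7 h but by -0.15 at 24 h. The dimmest, 205396_at, differed by 0.01 ± 0.12 over 1 to 7 h and by -0.02 at 24 h. The direction of SMAD3 against the control therefore depends on the probe set.

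SKIL, the corepressor that the pathway itself induces and degrades, was higher in all 8 exposed arrays, as 21.0% of all genes were. It read 7.23 at 1 h, 7.79 at 2 h, 7.92 at 3 h, 7.73 at 4 h, 7.63 at 5 h, 8.03 at 6 h, 7.63 at 7 h and 7.96 at 24 h, and 6.92 in the control. Most of the step lay between 1 h (0.30 above the control) and 2 h (0.87), and the largest gap in the order of levels, 0.401, separated the 5 h from the 1 h array. SKIL was at least 2-fold above the control at 3 h (1.00), 6 h (1.11) and 24 h (1.04), where 0.274%, 0.323% and 0.468% of all genes were. After a shift to 1 median the 3 h difference was 0.99, just under 2-fold. A dimmer probe set, 217591_at, gave 5.49 to 6.04 over 1 to 7 h and 5.49 at 24 h, against 5.23 in the control. Its highest value was that of the 5 h array. The 3 remaining SKIL probe sets had means of 3.06 to 3.16.

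TGIF1, a homeobox corepressor of SMAD-bound genes, was higher by less. It read 8.13 at 1 h, 8.04 at 2 h, 8.09 at 3 h, 8.24 at 4 h, 8.08 at 5 h, 8.12 at 6 h, 8.12 at 7 h and 8.37 at 24 h, and 7.90 in the control. The 24 h array was the highest and the control the lowest of the 9, with the 7 hourly arrays between 8.04 and 8.24. Another probe set, 1566901_at, was at 5.03 to 6.21 over 1 to 7 h and 5.25 at 24 h, against 5.98 in the control, and its highest values were those at 5 h and in the control, the 2 arrays that stood apart. The mean over the TGIF1 probe sets differed from the control by -0.07.

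PMEPA1, the membrane protein that keeps SMADs from the receptor, had higher levels at 4 to 7 h than at 1 h, and on its brightest probe set the 1 h level was that of the control. It read 8.09 at 1 h, 8.32 at 2 h, 8.54 at 3 h, 8.83 at 4 h, 8.85 at 5 h, 8.95 at 6 h, 8.81 at 7 h and 8.63 at 24 h, and 8.08 in the control. The difference from the control was thus 0.01 at 1 h, 0.88 at 6 h and 0.55 at 24 h. All 3 probe sets lay above the control on all 8 exposed arrays. The second, 222450_at, read 8.09 at 1 h, 8.89 at 6 h and 8.81 at 24 h, against 7.61 in the control, and was thus above the control already at 1 h. The 1 h level equal to the control thus rests on 1 probe set.

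SMURF2, the ubiquitin ligase, read 11.46 at 1 h, 11.40 at 2 h, 11.55 at 3 h, 11.60 at 4 h, 11.65 at 5 h, 11.68 at 6 h, 11.66 at 7 h and 11.64 at 24 h, and 11.25 in the control. The 2 earliest arrays were the lowest of the exposed ones, and the control lay 0.149 below the nearest of them. The other 3 probe sets differed from the control by only 0.05, 0.07 and 0.13 in the mean over 1 to 7 h. At 24 h they differed from it by 0.03, 0.29 and 0.30, beside 0.39 for the brightest. On the hourly arrays the brightest probe set alone had all values above the control, whereas each of the 4 had a positive slope over the hours, from 0.03 to 0.10 per h.

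LTBP2, a matrix protein of fibrils that unlike its relatives is not known to bind latent TGF-beta, read 7.25 at 1 h, 7.15 at 2 h, 7.34 at 3 h, 7.55 at 4 h, 7.92 at 5 h, 7.78 at 6 h, 7.66 at 7 h and 7.57 at 24 h, and 6.89 in the control. The exposed arrays lay 0.26 to 1.03 above the control. The 5 h array, which stood apart, was the highest and the only one at least 2-fold above it, where 0.314% of all genes were at that hour. After a shift to 1 median that difference was 0.995. The other probe set, 223690_at, read 6.97 to 7.71 over 1 to 7 h and 7.62 at 24 h, against 6.89 in the control, with its highest value at 6 h.

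**Figure D2:**
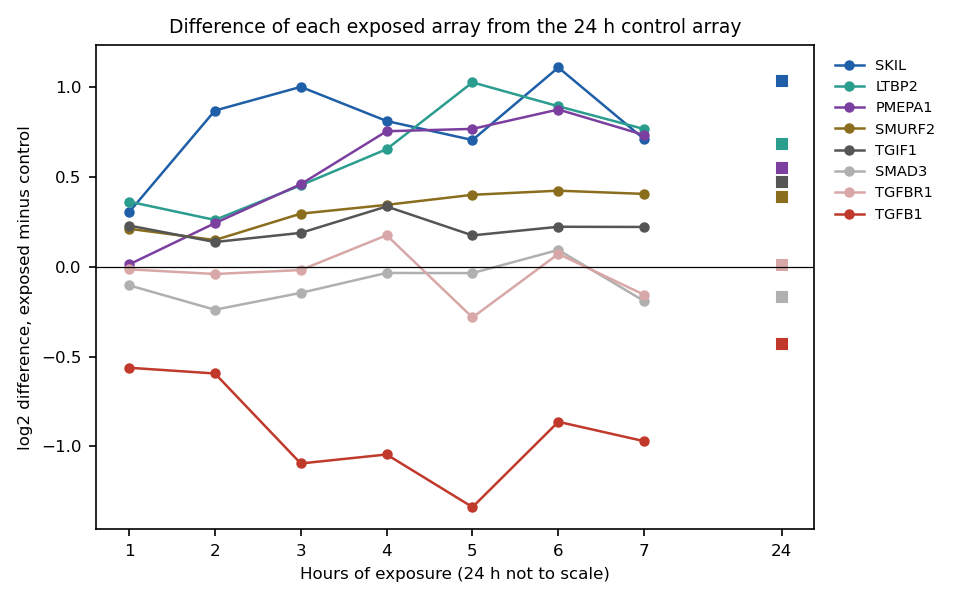
Log2 difference of each exposed array from the 24 h control array (vertical axis) by hour of exposure, for the 8 genes that were bright enough to test. PMEPA1 begins at 0.01 and LTBP2 at 0.36, SKIL steps to 0.87 at 2 h, TGFB1 runs from -0.43 to -1.34, and TGFBR1 and SMAD3 stay around 0.

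The mean over 1 to 7 h minus the control is the contrast on which the genes were chosen, so its values are a description with no test. It was 0.79 ± 0.22 for SKIL, 0.63 ± 0.15 for LTBP2, 0.55 ± 0.14 for PMEPA1, 0.32 ± 0.07 for SMURF2 and 0.22 ± 0.08 for TGIF1. TGFBR1 (-0.04 ± 0.14) and SMAD3 (-0.09 ± 0.11) differed by less than their SE, and TGFB1 by -0.92 ± 0.21. The control lay below all 8 exposed arrays for SKIL, LTBP2, PMEPA1, SMURF2 and TGIF1, a pattern that 21.0% of all genes had, and above all 8 for TGFB1, which 24.1% had. Nothing about these genes is read from those counts.

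The differences moved little when 1 hourly array was left out: from 0.73 to 0.87 for SKIL, from 0.57 to 0.69 for LTBP2, from 0.50 to 0.64 for PMEPA1, from 0.30 to 0.35 for SMURF2 and from -0.98 to -0.85 for TGFB1. The control array is the same single array in every comparison with it and cannot be left out.

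**Figure D3:**
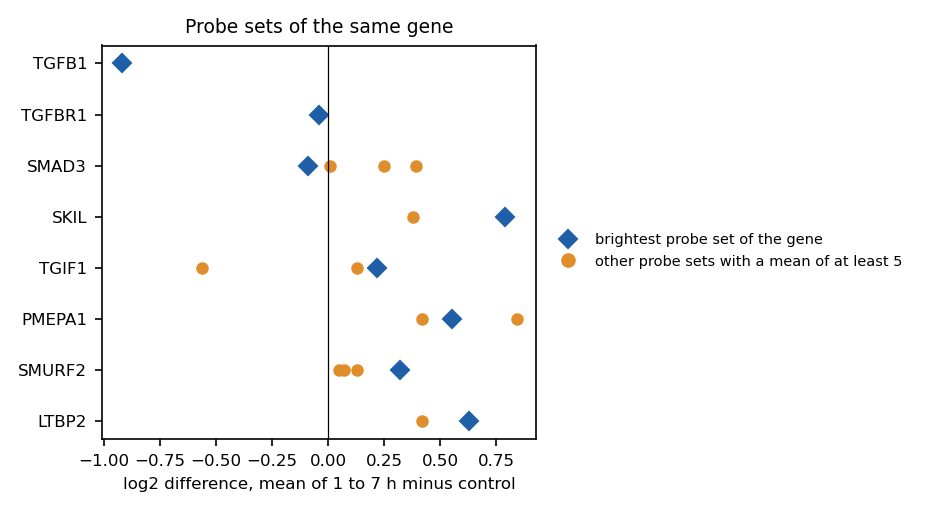
Log2 difference of the mean of 1 to 7 h from the control (horizontal axis) for every probe set with a mean of at least 5, by gene, with the brightest probe set as a blue diamond and the others as orange dots. The probe sets of PMEPA1, SKIL and LTBP2 all lie above 0, those of SMAD3 and TGIF1 lie on both sides of it, and the other SMURF2 probe sets lie close to it.

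The change during exposure was tested on the hourly arrays, which leaves the control out. By limma 0 of 12402 genes passed for the slope over 1 to 7 h (0% called), while 15.7% had an unadjusted p under 0.05, 4.89% as higher and 10.8% as lower. PMEPA1 had a slope of 0.13 ± 0.02 per h (95% interval 0.08 to 0.19; limma adjusted p = 0.104), the 6th highest of all genes. LTBP2 had 0.11 ± 0.03 per h (0.05 to 0.17; adjusted p = 0.141), the 16th highest, and SMURF2 0.04 ± 0.01 per h (0.01 to 0.07; adjusted p = 0.180). In the exact two-sided permutation test over all orders of the 7 arrays, run for 8 genes and not adjusted, p was 0.00437 for PMEPA1, 0.00635 for SMURF2 and 0.0274 for LTBP2. On the scale of log2 hours, where 74 genes passed, PMEPA1 passed with 0.31 per doubling of the hour (limma adjusted p = 0.0423), and none of the other 7 did. Without the 5 h array 0.589% of all genes passed on the scale of hours, and PMEPA1 (adjusted p = 0.0633) and LTBP2 (adjusted p = 0.0638) did not.

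None of the 8 genes passed for the slope on the scale of hours, and the remaining genes had 95% intervals that included 0. The slope was -0.07 ± 0.04 per h for TGFB1 (95% interval -0.16 to 0.01; limma adjusted p = 0.396; exact permutation p = 0.194). It was 0.05 ± 0.04 for SKIL (-0.04 to 0.14; adjusted p = 0.553; exact permutation p = 0.362). TGFBR1 (-0.07 to 0.04 per h), SMAD3 (-0.03 to 0.06) and TGIF1 (-0.03 to 0.04) had 95% intervals on both sides of 0. A bend within the 7 h was tested as the fitted level at 4 h minus the mean of the fitted levels at 1 and 7 h. No gene passed in limma (0 of 12402, with 6.97% at an unadjusted p under 0.05). TGFB1 dipped by a fitted -0.41 ± 0.15 and PMEPA1 bowed upward by 0.32 ± 0.08, SKIL by 0.35 ± 0.17, each with an adjusted p of 0.696. Without the 1 h array the bend of SKIL was 0.04 and its slope -0.02 per h, so both of its values rest on that array. The mean over probe sets gave a bend of -0.12 for TGFB1 and 0.18 for PMEPA1.

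The 24 h array was set against the mean of the 7 hourly arrays, again without the control. Among all genes 0.00806% passed, which is 1 gene, while 15.7% had an unadjusted p under 0.05. None of the 8 genes passed. TGFB1 was higher at 24 h by 0.49 ± 0.21 (limma adjusted p = 0.311) and TGIF1 by 0.25 ± 0.08 (adjusted p = 0.214). With the mean over probe sets these were 0.23 for TGFB1 and 0.02 for TGIF1, whose other probe sets gave -0.17 and -0.02. SKIL differed by 0.25 ± 0.22 (95% interval -0.25 to 0.75), and by -0.12 on its second probe set. LTBP2 differed by 0.05 ± 0.15 (-0.30 to 0.40) and by 0.32 on its second probe set, SMURF2 by 0.07 ± 0.07 (-0.10 to 0.24) and PMEPA1 by 0.00 ± 0.14 (-0.32 to 0.32). For PMEPA1 this mean joins the low first hours with the later ones, and its second probe set gave 0.37 ± 0.14 (adjusted p = 0.322 over 22504 probe sets). At 24 h of exposure against the 24 h control, 1 array on each side, the brightest probe sets and no test, SKIL was 2.05-fold, LTBP2 1.61-fold, PMEPA1 1.47-fold, TGIF1 1.39-fold and SMURF2 1.31-fold higher, and TGFB1 1.35-fold lower.

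**Figure D4:**
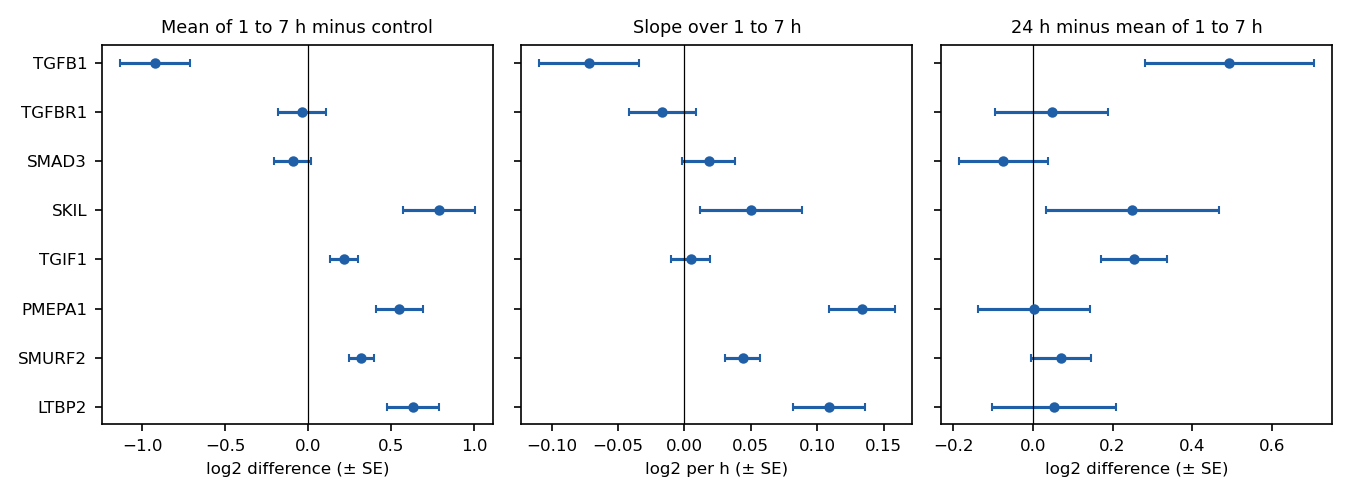
Estimates with standard errors for the 8 genes that were bright enough to test: log2 difference of 1 to 7 h from the control (left), log2 slope per hour (middle) and log2 difference of 24 h from 1 to 7 h (right). PMEPA1 and LTBP2 have the highest slopes, at 0.13 and 0.11 per h, and TGFB1 is the gene furthest below the control and furthest above the hourly mean at 24 h.

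The remaining genes of the pathway were taken from lists by role, 86 genes in all, of which 65 were measured. In limma's test of 1 to 7 h against the control 8 of the 65 passed as higher and 1 as lower, beside 5.85% and 8.02% of all genes (13.9% in all, and 23.3% without the 5 h array). The lists were drawn up with earlier results of these data known, and each call rests on the single control array. These calls are therefore a description and not independent support. Of all calls 42.2% were higher, against 56.6% after quantile normalization again. The median over the 65 was 0.09, beside -0.01 over all genes. Receptors and co-receptors, with 1 of 7 passed, were led by BAMBI, a decoy receptor without a kinase and itself a target of the pathway. BAMBI read 6.36 at 1 h, 7.02 at 2 h, 7.54 at 5 h, 7.39 at 7 h and 6.63 at 24 h, against 6.13 in the control. The type III co-receptor TGFBR3 (-0.01 ± 0.15) and the endothelial co-receptor ENG (0.19 ± 0.07) did not pass. None of the 3 further ligands measured passed: GDF11, a ligand of the activin branch, differed by 0.09 ± 0.13 and TGFB3 differed by -0.02 ± 0.11.

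Among 8 genes of latency and activation ITGB8, a subunit of an integrin that frees TGF-beta, passed as higher (0.73 ± 0.18), with 5.60 at 1 h, 6.54 at 6 h and 6.16 at 24 h, against 5.26 in the control. LTBP3, a binding protein of latent TGF-beta, differed by -0.48 ± 0.22 and did not pass, nor did the matrix proteoglycan DCN (0.41 ± 0.13) and the protease FURIN, which cleaves the propeptide (0.27 ± 0.09). Of 5 further SMADs and anchors SMAD6, the inhibitory SMAD better known from BMP signalling, passed (0.53 ± 0.13). SMAD4 (-0.11 ± 0.11) and SMAD2 (0.08 ± 0.09) did not, and SMAD7, the inhibitory SMAD of the TGF-beta branch, read 3.21 to 3.57 on all arrays and was below the required mean. Of 12 ubiquitin ligases, deubiquitinases and phosphatases NEDD4L, a ligase for activated SMADs, was higher (0.50 ± 0.09) and RNF111 (Arkadia), the ligase that removes SKIL protein, was lower (-0.36 ± 0.09). None of 8 further corepressors and partners passed, with E2F5, a partner of SMADs in repressing MYC, at -0.54 ± 0.17 and SKI, the closest relative of SKIL, at 0.07 ± 0.09.

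Of 22 further transcriptional targets 4 passed as higher and none as lower, with a median of 0.17. TGFBI, a matrix protein named for its induction by TGF-beta, read 7.85 to 8.24 over 1 to 7 h and 8.52 at 24 h, against 7.28 in the control. ID2, a dominant-negative partner of helix-loop-helix factors that BMP induces, read 8.39 to 9.28 over 1 to 7 h but 7.22 at 24 h, against 7.44 in the control. SNAI2, a repressor of epithelial genes, read 4.64 at 1 h, 5.62 at 2 h and 4.94 at 24 h, against 3.95 in the control. That control level is below the required mean of 5, so SNAI2 was tested only through its exposed levels. Its place among the 4 is therefore no support for a difference. BHLHE40, a transcription factor of stress and the clock, read 8.77 at 1 h, 7.78 at 7 h and 8.11 at 24 h, against 7.71 in the control. Among targets often used as readouts, SNAI1 differed by -0.09 ± 0.08 and CDKN1A by -0.24 ± 0.17 without passing. CCN2 had a mean below 5 and was not tested. It read 4.57 at 1 h, 5.77 at 2 h, 5.14 at 3 h, 4.10 at 5 h and 4.56 at 24 h, against 4.35 in the control. None of the 65 genes passed for the slope, the bend or the 24 h contrast. For the slope 16 had an unadjusted p under 0.05, where 15.7% of all genes did. Among the 22 targets the smallest limma p-values for the slope belonged to falling genes. These were BHLHE40 at -0.18 ± 0.02 per h, KLF10 at -0.14 ± 0.02, ID1 at -0.094 ± 0.015 and JUNB at -0.21 ± 0.04. Their limma adjusted p was 0.0731 to 0.0937. Of the other lists, BAMBI (0.15 ± 0.04) and ITGB8 (0.14 ± 0.03) rose, each with a limma adjusted p of 0.133. The median slope was -0.021 per h over the 65, beside -0.005 over all genes.

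**Figure D5:**
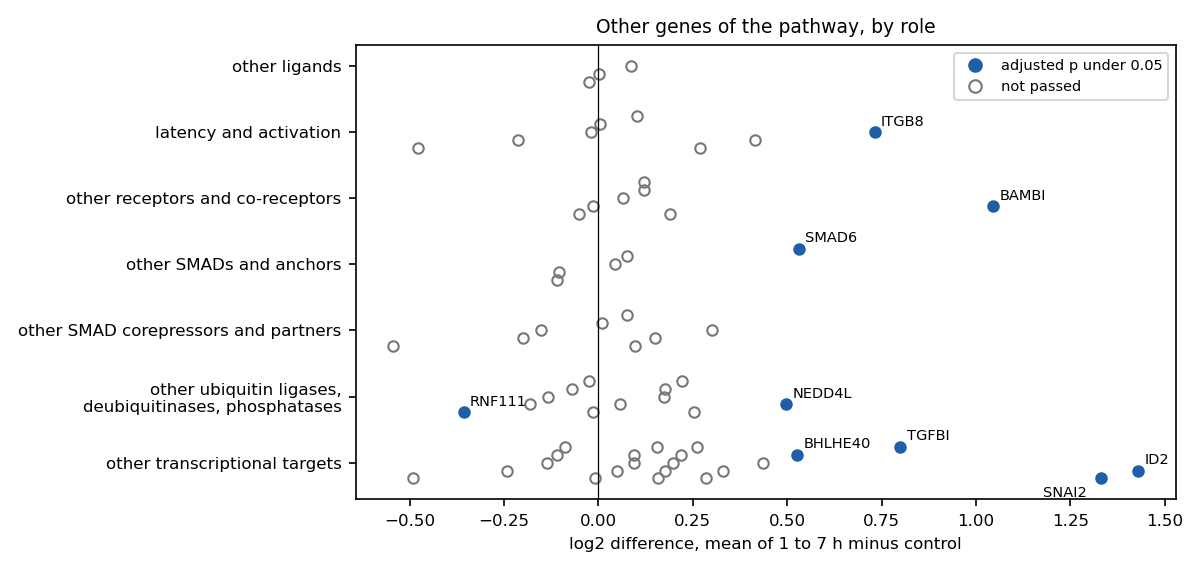
Log2 difference of the mean of 1 to 7 h from the control (horizontal axis) for 65 further genes of the pathway by role, filled where limma's adjusted p was under 0.05. The 9 filled genes are named, and RNF111 is the only one of them below 0. The lists were drawn up with earlier results of these data known.

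Some markers of stellate cells and fibroblasts were also higher in exposed cells. Of 14 such genes 8 had a mean of at least 5, and 3 of them passed as higher, where 5.85% of all genes did: COL3A1 (0.94 ± 0.11), COL1A2 (0.68 ± 0.13) and RGS5 (0.34 ± 0.07). The other 5 did not pass, with ACTA2, the actin of activated stellate cells, at -0.40 ± 0.18, DCN at 0.41 ± 0.13, GFAP at 0.20 ± 0.15, COL1A1 at 0.09 ± 0.13 and THY1 at 0.05 ± 0.12. The summed linear signal of the 14 was 6879 to 7718 over 1 to 7 h and 8171 at 24 h, against 5554 in the control. Most of that sum came from RGS5 and COL1A2, which were already bright in the control, at 11.85 and 10.3. The next brightest there, ACTA2, read 7.70. The sum thus does not show a rise across the 14. The summed signal of 8 markers of the carcinoma line was 29700 to 31970 over 1 to 7 h and 31760 at 24 h, against 28680 in the control. None of the 6 that were bright enough passed. The defining markers LUM (2.12 to 2.52), POSTN (2.69 to 3.11) and FAP (3.41 to 3.85) were near the bottom of the scale on every array. The part of these markers in the differences of the pathway genes was not tested.

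Likeness to the 3 genes that ranged furthest was measured as the root mean square difference between log2 profiles over the 9 arrays, each centred on its own mean. Nearest to TGFB1 were C1S (0.106), OPN3 (0.106) and KLHL28 (0.120), where TGFB1 itself deviated from its mean by 0.385. C1S read 6.43 at 1 h, 5.53 at 5 h and 6.67 at 24 h, against 6.93 in the control. Nearest to SKIL were INSIG1 (0.147), HMGCS1 (0.151) and IER5L (0.161), where SKIL deviated by 0.342. Nearest to LTBP2 were LINC00408 (0.121), PMEPA1 (0.135) and LINC00491 (0.158), where LTBP2 deviated by 0.307. LINC00408 and LINC00491, like LTBP2, had their highest level on the 5 h array, at 6.01 and 6.37. PMEPA1 was the only one of the 10 genes found among these neighbours of another. The profiles include the control, and the 10 genes were chosen on their difference from it. The nearness of PMEPA1 to LTBP2 is therefore in part built in and is a description only.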

How the data were processed

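Total RNA of 9 MiaPaCa2 samples was measured on Affymetrix arrays, 1 array each. Per the submitters' processing notes the deposited log2 values came from RMA (background correction, normalization between arrays, 1 summary per probe set). RMA's version and the chip file are not stated in the sources used here, nor is the filter behind a shorter table the authors deposited, of 6370 probe sets at the same log2 values. Groups came from the sample titles, which name treatment with naive stellate cells and do not mention supernatant.

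Gene symbols were taken from GEO's platform annotation and updated by Entrez ID to the RefSeq gene table of GRCh38.p14. Of 54675 probe sets, 41097 had 1 symbol, 1801 several and 11777 none, and only those with 1 symbol were used. A gene took the values of its brightest probe set on average, and 12402 of 19775 genes, those averaging 5 or more, were tested. Arrays carry no read depth, and their number limits the precision.

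Tests used limma 3.58.1 in R 4.3.3 (lmFit, eBayes, two-sided, Benjamini-Hochberg over 12402 genes, threshold 0.05), with terms for the centred hour, the 24 h array and the control array, and for the bend also the squared hour. The spread came from the hourly arrays with 5 residual and 3.72 prior degrees of freedom for the line, and each lone array (24 h, control) was taken to vary as much as these. The SD about the lines was 0.165 on the 5 h array, against 0.0786 to 0.102 on the other hourly arrays. The control array stood apart in correlation as the 5 h array did. Its own spread cannot be estimated, so errors against the control may be too small. The p-values rest on differences between single arrays, part of which may be technical. The fit was tested on simulated data. The genes, the lists and the tests were chosen with earlier results of these data known. Named genes were the 10 members, up to 4 per list with the largest difference from the control, and the 3 nearest profiles of members ranging over at least 1. TGFBR3, TGFB3, SMAD2, SMAD4, SMAD7, SKI, SNAI1, CDKN1A, CCN2, KRT18, VIM, EPCAM, CDH1, LUM, POSTN and FAP were named for their role, outside that rule and with their values seen. KLF10, ID1 and JUNB were named for their slopes, likewise outside that rule and with their values seen. Promoter sequences are RefSeq's, with all 10 genes matched by symbol, and the bases after the start were left off. Tables were made in Python 3.11.15 (pandas 2.3.3, numpy 2.4.6) and figures with matplotlib 3.10.9.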

Additional observations from a re-analysis of the deposited data

How the results depend on the processing

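The number of genes that passed against the control, 1721, was 1080 to 2889 when 1 hourly array was left out, with 1080 without the 3 h, 1119 without the 4 h and 2889 without the 5 h array. Quantile normalization again moved its split to 1180 higher and 904 lower, against 726 and 995. For the slope 0 genes passed, but 25 did with robust estimation and an intensity trend, 74 with log2 of the hour and 0 to 73 when 1 hourly array was left out, the 73 without the 5 h array. For the 24 h contrast 1 gene passed, against 11 with robust estimation, 2 with log2 of the hour, 0 with no filter, 0 with the mean over probe sets, 0 after a shift to 1 median, and 0 to 9 when 1 hourly array was left out, the 9 without the 1 h or the 5 h array. For the bend 0 genes passed under all 12 alternatives. At 24 h against the control 144 genes were at least 2-fold apart and 816 at least 1.5-fold. Of the members, SMAD3 changed sign against the control with probe set 205398_s_at (0.39 against -0.09), and TGIF1 with 1566901_at (-0.56 against 0.22); the cause was not tested. Other probe sets were tried for the slope, the bend and the 24 h contrast only after seeing the data. No paired analysis was possible because each group holds 1 array and the labels number no replicates. Signal over background limits TGFB2 and TGFBR2.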
